A study of Mus musculus with 8 samples.

Results

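Genes of T cell antigen receptor (TCR) and costimulation signalling were followed by RNA sequencing in CD4 T cells that were sorted from the spleens of mice. The set is a list of 45 genes given by symbol for the parts of the pathway, with no threshold on a measured value, and it was drawn up with earlier results of these data known. All 45 were found among the 54837 gene identifiers of the count table, and all 45 were among the 18851 genes kept by the filter on low counts. The 8 libraries fall into 3 groups, and every mouse carried Foxp3-eGFP-Cre-ERT2, in which the Foxp3 gene drives a green fluorescent protein and a Cre recombinase that tamoxifen activates. Every mouse also received tamoxifen on 5 consecutive days. GFPhi (n = 3) and GFPlow (n = 3) come from mice that also carried FSF-TIM-3. GFPhi cells were sorted as TIM-3+, FLAG+, GFP+ and FoxP3+, and GFPlow cells as TIM-3+, FLAG+, GFP- and FoxP3-. WT (n = 2) cells were sorted as TIM-3-, FLAG-, GFP+ and FoxP3+ from mice with Foxp3-eGFP-Cre-ERT2 alone. GFPhi and GFPlow thus share a genotype and differ in the gate on GFP and FoxP3, whereas both differ from WT in genotype together with the gate on TIM-3 and FLAG, so that the transgene and the selection of cells cannot be told apart in the comparisons with WT. Libraries are numbered as in their titles. The labels do not say that the libraries of a group come from separate animals, so p-values measure the spread between these libraries, part of which may be technical. Xist, transcribed from the inactive X of females, was at 237 CPM in GFPhi library 3, 184 CPM in GFPlow library 3 and 242 CPM in WT library 2, and at most 0.263 CPM in the other 5. The Y-linked gene Ddx3y was at 0 in the 2 libraries numbered 3, at 6.16 CPM in WT library 2 and at 170 to 229 CPM in the other 5, so each group held RNA of more than 1 animal.

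The T cell receptor has no enzyme activity of its own. When it binds antigen, the kinase LCK, held on the co-receptor CD4, phosphorylates the CD3 and zeta chains, ZAP70 docks there and phosphorylates the adaptors LAT and SLP-76 (gene Lcp2), and the complex built on them activates phospholipase C gamma 1, exchange factors for small GTPases such as Ras, and the NF-kappaB and NFAT branches. Kinases such as CSK, phosphatases, ubiquitin ligases of the CBL family and diacylglycerol kinases limit the signal. Regulatory T cells, which express Foxp3, need signals from the receptor for their development and their function.

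Total counts ran from 44446215 to 55388756 per library. Foxp3 was at 60.2 to 81.0 CPM (counts relative to library size, scaled by TMM) in GFPhi, 1.97 to 4.82 CPM in GFPlow, and 41.7 and 63.2 CPM in WT, and Havcr2, the gene of TIM-3, was at 1077 to 1791 CPM, 127 to 538 CPM, and 0.876 and 0.172 CPM, so each library followed its gate. WT library 1 stood apart. It held counts in 18599 genes, against 21248 to 22185 in the other 7 libraries, 6.54% of its counts were mitochondrial against 2.35% to 2.78%, and its TMM factor was 0.694 against 1.04 to 1.07. GFPhi library 3, GFPlow library 3 and WT library 2 held Xist at 184 to 242 CPM, and the other 5 libraries at 0.263 CPM or less. The Y-linked Ddx3y was at 0 in the first 2 of these, at 6.16 CPM in WT library 2, and at 170.3 to 229 CPM elsewhere. Counts of members called and their median fold change against WT are therefore given with and without WT library 1. Without it, WT was 1 library, so the errors against WT held no spread between WT libraries. Other values against WT use all 8 libraries unless stated.

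Cd3e, Cd3d, Cd3g, Cd247 and Cd4 were counted in every library, with Cd4 at 109 to 436 CPM. Of the 2 chains of CD8, the co-receptor of CD8 T cells, Cd8a was at 0 to 4.05 CPM and Cd8b1 at 15.9 to 37.7 CPM, with counts of Cd8b1 in every library. The 45 members summed to 15789 to 16098 CPM in GFPhi, 17785 to 18950 CPM in GFPlow, and 17695 and 15722 CPM in WT. Marker lists of other cells are shorter, and their sums do not measure the share of such cells. The 6 natural killer (NK) cell markers summed to 26.5, 19.7 and 92.4 CPM in GFPlow, 2.82 to 6.79 CPM in GFPhi, 9.31 CPM in WT library 1 and 1.84 CPM in WT library 2. The 6 myeloid markers summed to 231 CPM in GFPlow library 3 and 1.60 to 31.6 CPM in the others. The 6 B cell markers summed to 8.35 to 16.9 CPM in GFPlow, 46.4 to 54.0 CPM in GFPhi, 75.8 CPM in WT library 1 and 56.1 CPM in WT library 2. Most of it in GFPhi and WT was Cd79b. The 5 plasma markers summed to 159 to 190 CPM in GFPhi, 112 to 135 in GFPlow, and 79.6 and 185 in WT. The 6 stromal markers summed to 98.5 to 114 CPM in GFPhi, 139 to 164 in GFPlow, and 40.0 and 106 in WT. Most of the plasma sum was Xbp1 and most of the stromal sum Pecam1. The 6 platelet markers summed to 40.8 CPM in WT library 1 and 0.187 to 5.30 CPM in the others. The part of other cells was not tested.

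Divided by the length of each gene's exons, the most abundant member in GFPhi was Lck, at 672 CPM per kilobase, followed by Cd3d at 614, Cd3g at 434, Lat at 173 and Dgka at 166. The least abundant were Sos1, an exchange factor for Ras, at 1.56 CPM per kilobase, Malt1 at 2.89 and Pag1 at 3.08. No member was near the detection limit: the lowest count of any member in any library was 499 and the highest 159685. Libraries of a group differed little. The ratio of the highest to the lowest library had a median over the members of 1.15 in GFPhi and 1.12 in GFPlow, and was under 1.5 for 42 and 44 of the 45 members. In GFPhi the member with the widest spread was Grb2, the adaptor that recruits SOS, with 57.6, 31.8 and 27.2 CPM in libraries 1 to 3. The 2 WT libraries differed more, by a median ratio of 1.62 and by more than 2-fold for 15 members, or 33.3%, which is below the 49.2% of all genes tested with a count in both and the 41.1% of those at least as abundant as the least abundant member.

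**Figure D1:**
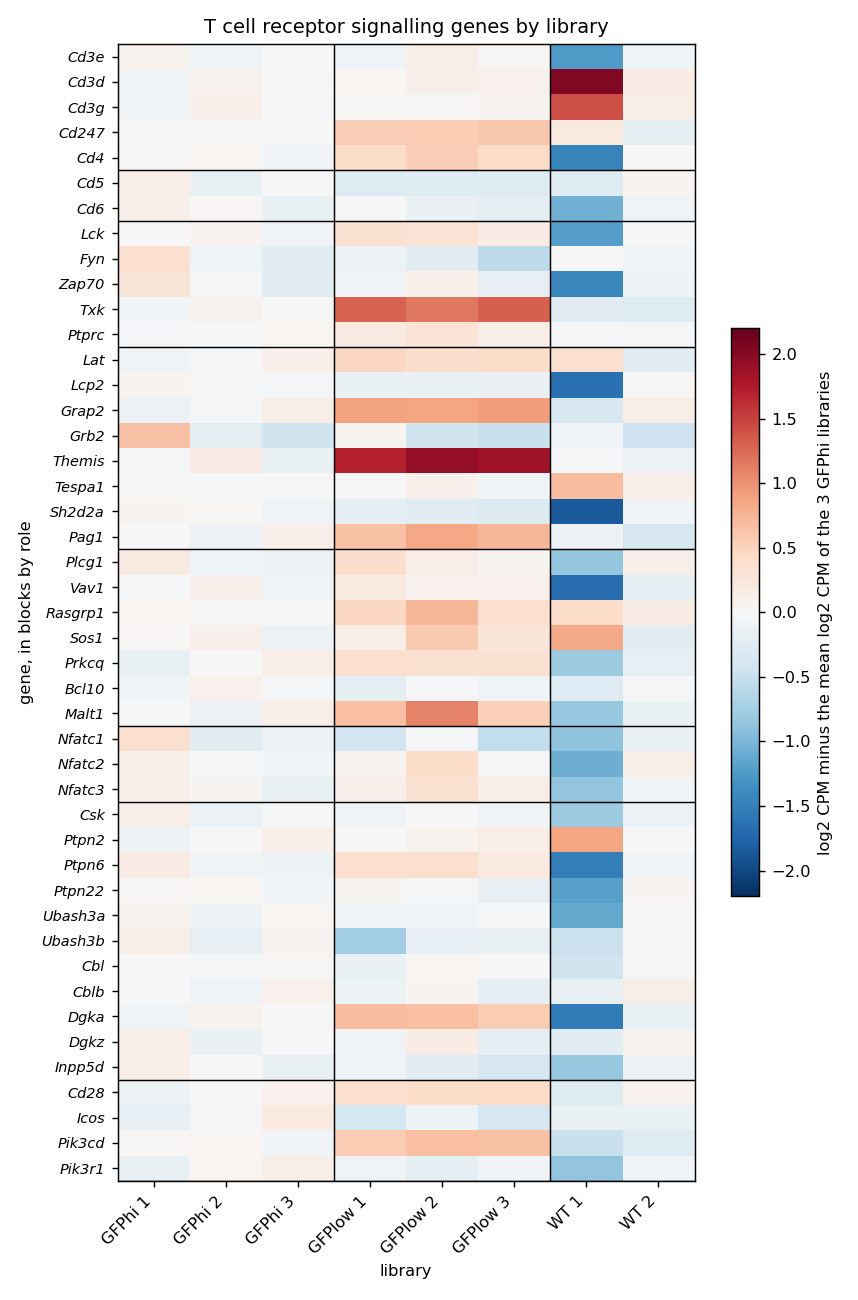
Log2 CPM of the 45 members in each of the 8 libraries, minus the gene's mean log2 CPM over the 3 GFPhi libraries, with members in blocks by role. WT library 1 differs most from the rest, and Themis, Txk and Grap2 are higher in the 3 GFPlow libraries than in the other 5.

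The first comparison, GFPhi with GFPlow, set GFP+ FoxP3+ against GFP- FoxP3- cells of the same genotype. Havcr2 also differed, at a mean of 1464 CPM in GFPhi and 308 CPM in GFPlow. Its log2 difference was 2.25 ± 0.61 (SE), without overlap of the libraries and without passing the test. The gate and the amount of Havcr2 RNA therefore cannot be told apart here. Themis, Txk and Grap2 fell in GFPhi relative to GFPlow, and no member rose. In edgeR's quasi-likelihood test with Benjamini-Hochberg adjustment over all 18851 genes, 3 of the 45 members passed adjusted p 0.05, or 6.67%, against 2.26% of all genes tested (percent called, either direction) and 3.17% of the 7014 genes at least as abundant as the least abundant member. All 3 were lower in GFPhi, a direction called for 0.626% of all genes and 1.01% of genes at least as abundant, while 1.63% and 2.15% were called higher. The median log2 fold change of the members was -0.07, against 0.01 over all genes tested. Of the members, 26 lay below 0 and 19 above, and 7 differed by more than 1.5-fold in the fit, or 15.6%, against 32.3% of all genes tested and 10.4% of genes at least as abundant. In bulk RNA, fewer cells of a type and less RNA per cell cannot be told apart.

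Themis (ENSMUSG00000049109, GRCm38 chromosome 10, 28668360 to 28883818) encodes an adaptor of the T cell lineage that binds GRB2 and the phosphatase SHP-1 and is needed for thymocyte selection. Its abundance was 64.8, 76.0 and 60.4 CPM in GFPhi libraries 1 to 3, 217, 255 and 244 CPM in GFPlow libraries 1 to 3, and 64.9 and 60.7 CPM in WT libraries 1 and 2. Every GFPlow library was higher than every GFPhi and WT library, and GFPhi and WT lay in the same range. The group means were 67.1 ± 8.02 CPM in GFPhi and 239 ± 19.7 CPM in GFPlow (SD, n = 3 each). The log2 difference of GFPhi from GFPlow was -1.83 ± 0.17 (SE), a 3.56-fold lower mean in GFPhi, with adjusted p = 0.00223. Themis passed the threshold under all 21 alternative settings of this comparison, with adjusted p of at most 0.0267.

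Txk (ENSMUSG00000054892, GRCm38 chromosome 5, 72695978 to 72752777) encodes RLK, a TEC family kinase that acts on phospholipase C gamma 1. It was measured at 132, 145 and 136 CPM in GFPhi libraries 1 to 3, 337, 307 and 343 CPM in GFPlow libraries 1 to 3, and 116 and 114 CPM in WT libraries 1 and 2. Again the 3 GFPlow libraries stood above the other 5, with no overlap. The log2 difference was -1.26 ± 0.15 (adjusted p = 0.00617), 2.39-fold lower in GFPhi. Without GFPhi library 1 its adjusted p was 0.0579, and under its alternatives the p ranged from 3.92e-57 to that value.

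Grap2 (ENSMUSG00000042351, GRCm38 chromosome 15, 80572594 to 80652854) encodes GADS, the adaptor that joins SLP-76 to LAT. Its values were 133, 143 and 160.3 CPM in GFPhi libraries 1 to 3, 267, 265 and 275 CPM in GFPlow libraries 1 to 3, and 114 and 158 CPM in WT libraries 1 and 2. GFPlow was again above both other groups in every library, while WT library 2 lay inside the GFPhi range. The log2 difference of GFPhi from GFPlow was -0.89 ± 0.18 (adjusted p = 0.0472). This call was lost when any 1 of the 6 GFPhi and GFPlow libraries was left out.

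**Figure D2:**
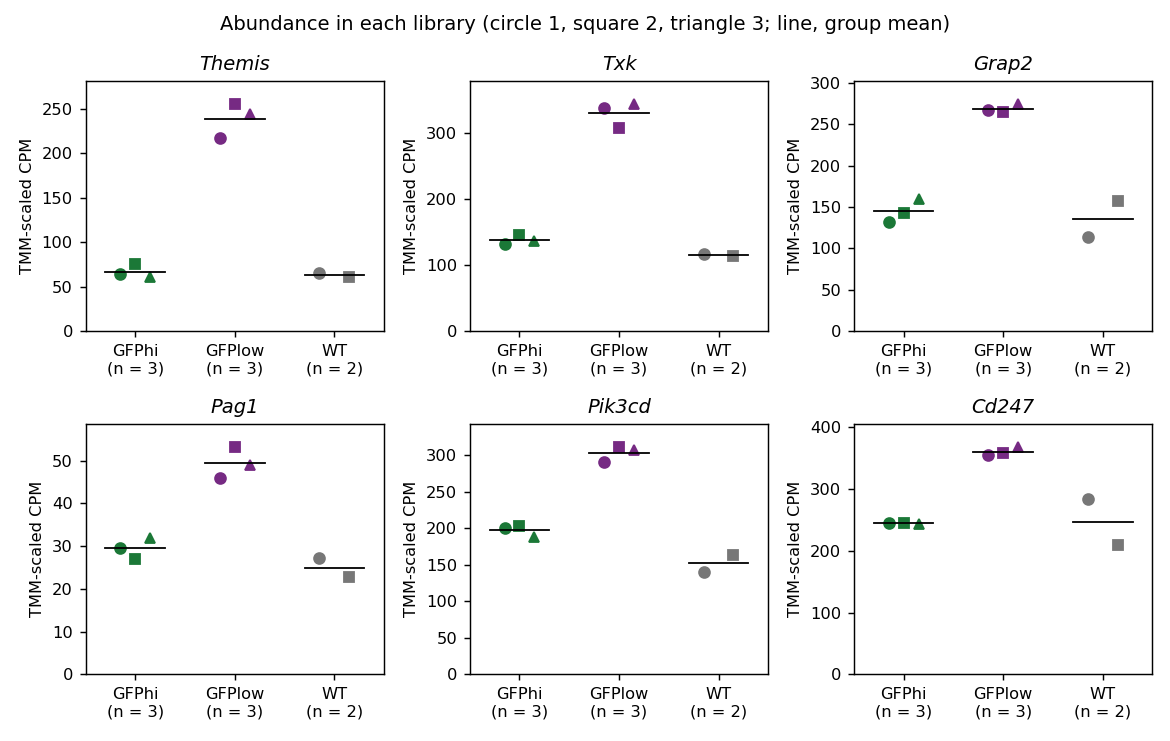
TMM-scaled CPM in each library of the members past the threshold in a comparison, by group, and of Cd247, with group means as lines. For Themis, Txk and Grap2 the 3 GFPlow points lie above all GFPhi and WT points, and the same holds for Pag1 and Pik3cd.

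The 3 genes passed the test, so the letters before their start sites are printed to show what lies there. They are among 17 members that were lower in every GFPhi library, and the other windows are not printed. Sequences are the 250 bases upstream of the RefSeq start site on GRCm38.p6, 5′ to 3′ on the gene's strand, with matches to GGAAA, the core bound by NFAT, and GTAAAC, a forkhead core bound by factors such as FOXP3 and FOXO1, in capitals on either strand. A GTAAAC on the opposite strand reads GTTTAC, as in Grap2. These motifs were chosen with the results and the sequences in view. The windows are chr10:28668110-28668359 on the + strand, chr5:72752778-72753027 on the - strand and chr15:80623233-80623482 on the + strand. The Grap2 start used by RefSeq lies 50889 bases from the 5′ end of the gene in GENCODE, so this window may not be the start used in these cells.
Themis: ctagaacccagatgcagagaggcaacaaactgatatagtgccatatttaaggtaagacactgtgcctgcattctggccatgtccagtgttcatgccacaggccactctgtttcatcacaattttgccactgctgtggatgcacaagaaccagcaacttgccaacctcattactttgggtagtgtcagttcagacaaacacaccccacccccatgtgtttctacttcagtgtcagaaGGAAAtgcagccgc
Txk: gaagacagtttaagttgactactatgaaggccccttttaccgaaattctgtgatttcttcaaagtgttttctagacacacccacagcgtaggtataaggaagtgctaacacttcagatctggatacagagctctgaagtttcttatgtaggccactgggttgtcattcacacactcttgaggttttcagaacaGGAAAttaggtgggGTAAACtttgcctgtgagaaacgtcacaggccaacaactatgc
Grap2: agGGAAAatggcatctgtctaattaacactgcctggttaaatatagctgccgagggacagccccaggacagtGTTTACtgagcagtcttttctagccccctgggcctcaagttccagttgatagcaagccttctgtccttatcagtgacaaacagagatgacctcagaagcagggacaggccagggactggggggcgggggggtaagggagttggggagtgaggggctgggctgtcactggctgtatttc
GGAAA occurred 1 time in each of the 3 windows, and GTAAAC in those of Txk and Grap2. RefSeq windows were given for 35 of the 45 members. GGAAA was in 62.9% of these 35 and in 55.2% of all 20592 windows of the same length, and GTAAAC in 11.4% and 6.49%. CTTTGA, the core of TCF and LEF factors, was in 20.0% against 13.5%, and ACCACA, a RUNX core, in 5.71% against 13.0%. Of the windows printed, that of Txk held CTTTGA on the opposite strand, where it is not in capitals. A match describes letters and is no binding site.

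Sorted by role, the libraries of GFPhi and GFPlow did not overlap for 20 of the 45 members, or 44.4%, against 30.0% of all genes tested and 39.3% of the genes at least as abundant. Of these, 17 members were lower in all GFPhi libraries, or 37.8% against 14.0% of all genes and 20.4% of genes at least as abundant. The 3 that were higher were Cd5, Lcp2 and Sh2d2a, 6.67% against 16.0% and 18.9%. The spread used in the test is estimated over all 3 groups, and the gap between the WT libraries enters it. Without WT library 1, 16 members passed, or 35.6% against 10.7% of all genes tested and 17.2% of genes at least as abundant. In that fit 15 were lower in GFPhi, with 4.69% of all genes called in that direction, and Sh2d2a was higher. With only the GFPhi and GFPlow libraries in the fit, the count was also 16, beside 2021 of all genes. On all 8 libraries DESeq2 called 8 members, beside 1375 of all genes, and voom 14, beside 2271. The cause of these changes was not tested.

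Among the receptor chains, Cd3e, Cd3d and Cd3g overlapped between GFPhi and GFPlow. Cd3e, the epsilon chain, was at 449 ± 22.2 CPM in GFPhi and 459 ± 33.5 CPM in GFPlow (SD, n = 3 each). Cd3d, the delta chain, was at 1115 ± 58.5 CPM in GFPhi and 1184 ± 30.6 CPM in GFPlow. Cd3g, the gamma chain, was at 1418 ± 101 CPM in GFPhi and 1451 ± 15.9 CPM in GFPlow. None of the 3 passed in either fit. Cd247, the zeta chain that carries most of the receptor's phosphorylation motifs, went apart from them, with 245, 245 and 243 CPM in GFPhi and 354, 358 and 368 CPM in GFPlow, and 283 CPM in WT library 1 and 209.8 CPM in WT library 2. Its GFPlow libraries lay above all others. The log2 difference was -0.56 ± 0.17 on all 8 libraries, with adjusted p = 0.185, and -0.56 ± 0.05 without WT library 1, where it passed. Exons of Cd247 share 56.43% of their length with Pou2f1 on the other strand, and the strand setting of the counting is not given in the sources used here. Pou2f1 itself was counted at 29.0 to 46.1 CPM over the libraries. Cd4 was at 308, 309 and 288 CPM in GFPhi and 400.4, 436 and 402 CPM in GFPlow, and 109 CPM in WT library 1 and 298 CPM in WT library 2. Each GFPlow library was above every other, and the lowest value was WT library 1. Cd4 passed without WT library 1 (-0.45 ± 0.06) and not with it (-0.45 ± 0.32).

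**Figure D3:**
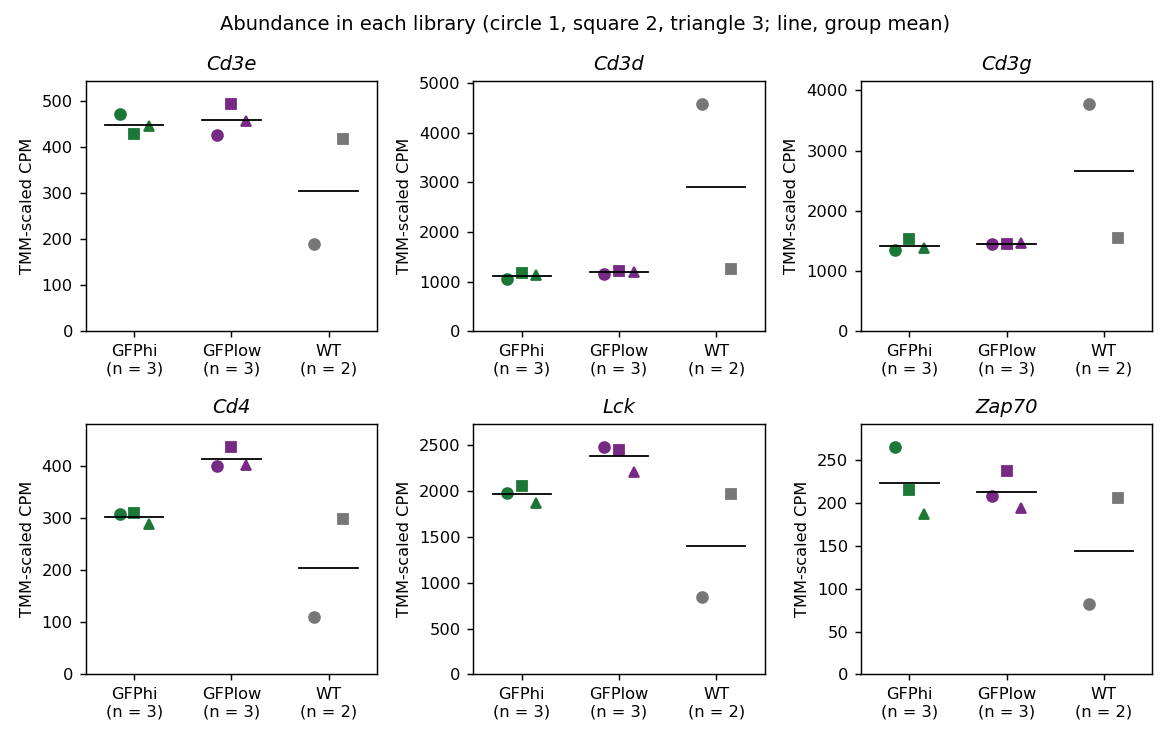
TMM-scaled CPM in each library for the CD3 chains Cd3e, Cd3d and Cd3g, the co-receptor Cd4, and the kinases Lck and Zap70. GFPhi and GFPlow overlap for the CD3 chains and Zap70 and are apart for Cd4 and Lck, and WT library 1 lies far from WT library 2 in each panel.

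Of the co-receptors that tune the signal, Cd5, which restrains TCR signalling, was at 304, 247 and 279 CPM in GFPhi and 226, 230.1 and 229 CPM in GFPlow, without overlap and without passing the test in either fit. Cd6 overlapped, at 299 ± 26.0 CPM in GFPhi and 275 ± 18.3 CPM in GFPlow (SD, n = 3 each). Among the proximal kinases, Lck was at 1977, 2057 and 1873 CPM in GFPhi and 2483, 2455 and 2205 CPM in GFPlow, and the log2 difference was -0.27 ± 0.30 on all libraries and -0.28 ± 0.06, past the threshold, without WT library 1. Fyn, a SRC family kinase beside Lck, had 157 ± 35.6 CPM in GFPhi and 125 ± 20.3 CPM in GFPlow (SD, n = 3 each) and Zap70 had 223 ± 39.4 CPM in GFPhi and 213 ± 22.3 CPM in GFPlow, and both overlapped. Ptprc encodes CD45, the phosphatase that removes the inhibitory phosphate from LCK. It was at 2611 ± 84.7 CPM in GFPhi and 3011 ± 175 CPM in GFPlow (SD, n = 3 each) and passed without WT library 1, at -0.21 ± 0.05. The kinase tier thus held members 2.39-fold apart (Txk) beside members that overlapped.

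The 8 adaptors differed in direction. Lat, the membrane scaffold, was at 449, 471 and 513 CPM in GFPhi and 652, 624 and 628 CPM in GFPlow, and Pag1, which holds CSK near the receptor, was at 29.6, 27.0 and 31.9 CPM in GFPhi and 45.8, 53.2 and 49.0 CPM in GFPlow. Both were lower in all GFPhi libraries and passed without WT library 1, at -0.41 ± 0.06 and -0.74 ± 0.11. Sh2d2a, which encodes the LCK-binding adaptor TSAd, was at 303, 297 and 276 CPM in GFPhi and 254, 244 and 236 CPM in GFPlow. It was the 1 member that was higher in GFPhi in that fit, at 0.25 ± 0.06. Lcp2 was also higher in every GFPhi library, at 529 ± 22.0 CPM in GFPhi and 479 ± 1.43 CPM in GFPlow (SD, n = 3 each), without passing in either fit. Grb2, at 38.9 ± 16.4 CPM in GFPhi and 30.6 ± 6.79 CPM in GFPlow (SD, n = 3 each), and Tespa1, which acts with the IP3 receptor in calcium release, at 302 ± 3.50 CPM in GFPhi and 306 ± 18.5 CPM in GFPlow, overlapped between the groups.

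Of the 7 enzymes and exchange factors, none passed on all 8 libraries. Rasgrp1, the diacylglycerol-activated exchange factor for Ras, was at 200.1, 189 and 193 CPM in GFPhi and 266, 322 and 249 CPM in GFPlow. Malt1, a protease of the NF-kappaB branch, was at 51.6, 47.7 and 57.1 CPM in GFPhi and 82.5, 111 and 74.9 CPM in GFPlow. Prkcq, the protein kinase C that starts the NF-kappaB branch, was at 323, 365 and 399 CPM in GFPhi and 461, 456 and 453 CPM in GFPlow. All 3 were lower in each GFPhi library than in any GFPlow library and passed without WT library 1, with log2 differences of -0.53 ± 0.09, -0.78 ± 0.15 and -0.34 ± 0.08. Sos1 was also below in every library, at 16.5 ± 1.45 CPM in GFPhi and 20.9 ± 3.34 CPM in GFPlow (SD, n = 3 each), without passing in either fit. Plcg1, the phospholipase that makes the calcium and diacylglycerol messengers, overlapped, at 78.3 ± 9.88 CPM in GFPhi and 89.9 ± 11.0 CPM in GFPlow (SD, n = 3 each). Vav1, at 177 ± 12.9 CPM in GFPhi and 193 ± 8.37 CPM in GFPlow, and Bcl10, the partner of MALT1, at 96.8 ± 5.56 CPM in GFPhi and 89.9 ± 4.86 CPM in GFPlow, overlapped as well, and so did the 3 NFAT factors, which enter the nucleus when calcineurin removes their phosphates. Nfatc1 was at 187 ± 41.6 CPM in GFPhi and 147 ± 27.4 CPM in GFPlow (SD, n = 3 each), Nfatc2 at 34.2 ± 2.27 CPM in GFPhi and 37.8 ± 6.34 CPM in GFPlow and Nfatc3 at 169 ± 16.8 CPM in GFPhi and 193 ± 16.5 CPM in GFPlow.

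Of the 11 genes that limit the signal, 9 overlapped between GFPhi and GFPlow: Csk, Ptpn2, Ptpn22, Ubash3a, Ubash3b, Cbl, Cblb, Dgkz and Inpp5d. Cblb, the ligase that sets the need for costimulation, was at 63.1 ± 3.92 CPM in GFPhi and 59.5 ± 5.50 CPM in GFPlow (SD, n = 3 each), and its relative Cbl was at 95.3 ± 1.46 CPM in GFPhi and 93.0 ± 5.90 CPM in GFPlow. Csk, the kinase that adds the inhibitory phosphate to LCK, was at 128 ± 11.8 CPM in GFPhi and 124 ± 4.22 CPM in GFPlow, and Ptpn22, the phosphatase that works with it, at 391 ± 14.6 CPM in GFPhi and 378 ± 32.0 CPM in GFPlow. Ptpn2, a phosphatase of SRC family and JAK kinases, was at 159 ± 12.2 CPM in GFPhi and 168 ± 8.57 CPM in GFPlow. None of these passed in either fit. The histidine phosphatase genes Ubash3a and Ubash3b, whose products dephosphorylate ZAP70 family kinases, were at 197 ± 12.9 CPM in GFPhi and 188 ± 3.70 CPM in GFPlow and at 60.6 ± 6.62 CPM in GFPhi and 47.5 ± 10.6 CPM in GFPlow. Inpp5d, which encodes the lipid phosphatase SHIP-1, was at 77.2 ± 8.25 CPM in GFPhi and 65.9 ± 7.02 CPM in GFPlow. The exceptions were Dgka and Ptpn6. Dgka, a diacylglycerol kinase that lowers the signal to RASGRP1, was at 753, 838 and 783 CPM in GFPhi and 1267, 1246 and 1160.0 CPM in GFPlow, and its log2 difference was -0.63 ± 0.32 on all libraries and -0.63 ± 0.06, past the threshold, without WT library 1. Its relative Dgkz was at 71.1 ± 7.20 CPM in GFPhi and 69.4 ± 9.36 CPM in GFPlow (SD, n = 3 each). Ptpn6, which encodes SHP-1, was at 353 ± 40.4 CPM in GFPhi and 435 ± 22.9 CPM in GFPlow and passed in neither fit.

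In costimulation, Cd28 was at 379.5, 413 and 438 CPM in GFPhi and 524, 541 and 546 CPM in GFPlow, and Pik3cd, the catalytic PI3K subunit p110 delta, at 200.5, 203 and 188 CPM in GFPhi and 289.8, 311 and 307 CPM in GFPlow. Both were lower in every GFPhi library than in any GFPlow library, and without WT library 1 both passed, at -0.39 ± 0.06 and -0.62 ± 0.06. Icos, a relative of Cd28, overlapped, at 305 ± 42.7 CPM in GFPhi and 249 ± 27.7 CPM in GFPlow (SD, n = 3 each), as did Pik3r1, the regulatory subunit p85 alpha, at 169 ± 17.1 CPM in GFPhi and 155 ± 7.98 CPM in GFPlow. Markers of other cells differed between the groups, with the NK list at 19.7 to 92.4 CPM in GFPlow against 2.82 to 6.79 CPM in GFPhi, and their part in the differences above was not tested.

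**Figure D4:**
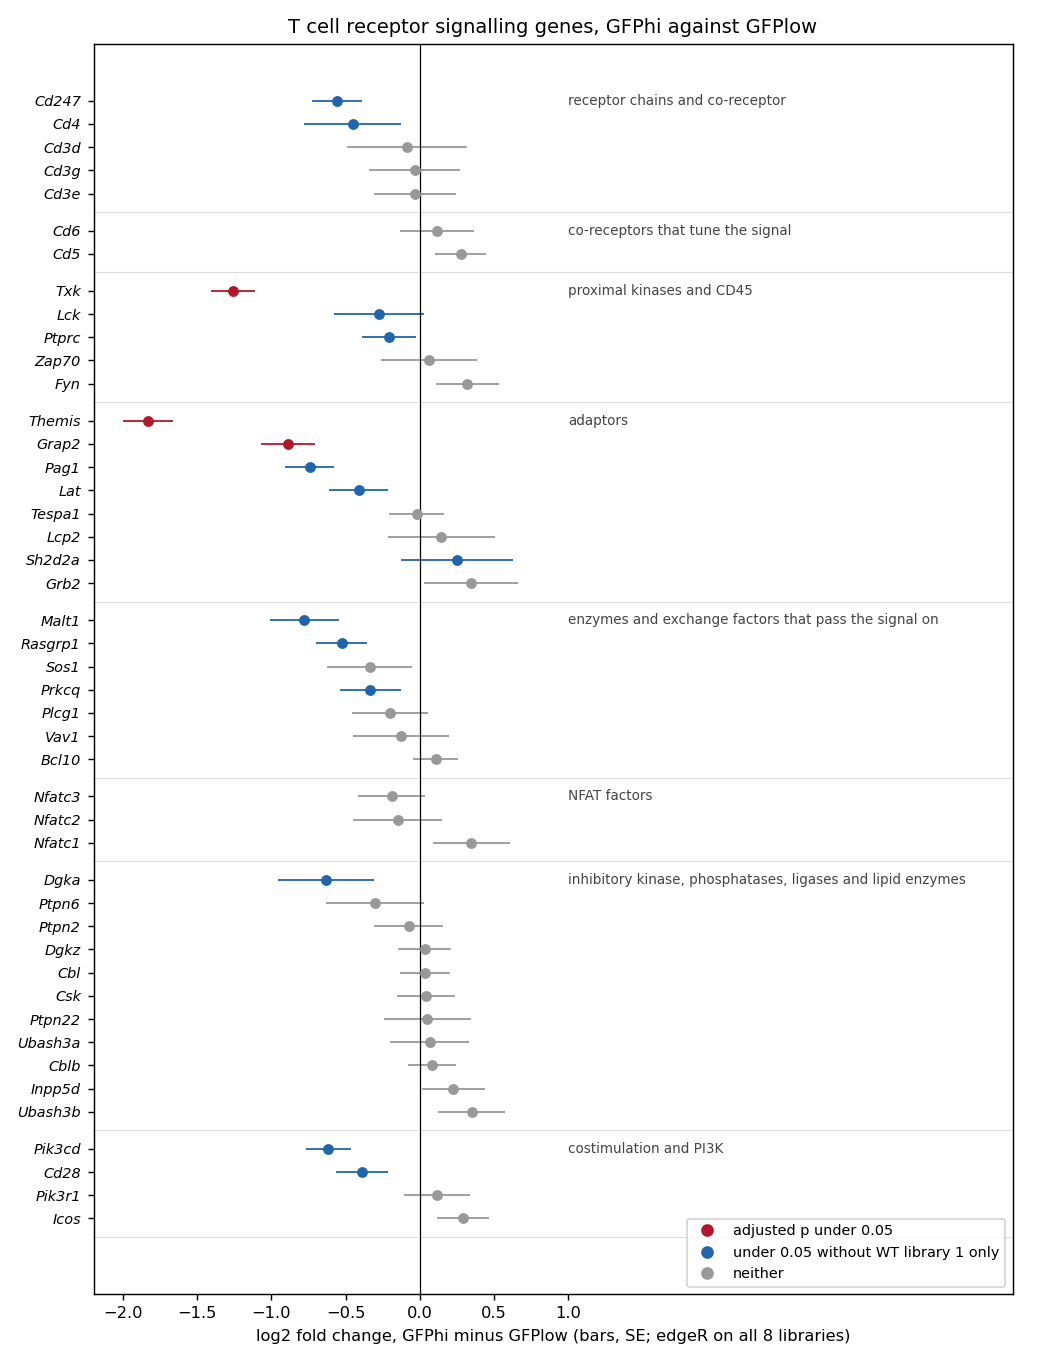
Log2 fold change of GFPhi from GFPlow with its standard error for the 45 members, by role, from edgeR on all 8 libraries. Red points passed adjusted p 0.05 (Themis, Txk and Grap2, all to the left of 0), and blue points passed without WT library 1 and not with it.

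GFPlow was next compared with WT, a comparison that shares the GFPlow libraries with the one above and in which genotype, TIM-3 and Foxp3 gates all differ. Themis, Txk, Pik3cd, Pag1 and Grap2 rose in GFPlow, and no member fell. These 5 of 45 members, or 11.1%, passed adjusted p 0.05 in the edgeR quasi-likelihood test, against 3.30% of all genes tested and 4.56% of genes at least as abundant. Of all genes, 1.08% were called higher and 2.23% lower in GFPlow, and of genes at least as abundant 1.71% and 2.85%. The median log2 fold change of the members was 0.39, against 0.02 over all genes tested, and it was 0.09 without WT library 1.

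Themis was 3.80-fold higher in GFPlow than in WT, a log2 difference of 1.93 ± 0.19 (SE; adjusted p = 0.00371), and Txk 2.86-fold, at 1.52 ± 0.18 (adjusted p = 0.00477). Both WT libraries lay close together for these genes, at 64.9 and 60.7 CPM for Themis and 116 and 114 CPM for Txk. Grap2 was higher by 0.98 ± 0.21 (adjusted p = 0.0425). Pik3cd (ENSMUSG00000039936, GRCm38 chromosome 4, 149649168 to 149702571) was at 200.5, 203 and 188 CPM in GFPhi libraries 1 to 3, 289.8, 311 and 307 CPM in GFPlow libraries 1 to 3, and 140.3 and 164 CPM in WT libraries 1 and 2. Its GFPlow libraries lay above all others, and the log2 difference was 0.99 ± 0.18 (adjusted p = 0.024). Pag1 (ENSMUSG00000027508, GRCm38 chromosome 3, 9687479 to 9833679) had 27.1 CPM in WT library 1 and 22.8 CPM in WT library 2, below the 49.3 ± 3.69 CPM (SD, n = 3) of GFPlow. Its log2 difference was 0.98 ± 0.19 (adjusted p = 0.0333). Leaving out any 1 of the 6 GFPhi and GFPlow libraries left Themis and Txk past the threshold and not the other 3.

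GFPlow and WT did not overlap for 23 members, or 51.1%, against 40.3% of all genes tested and 50.4% of genes at least as abundant. Of these, 19 were above in GFPlow, 42.2% against 21.1% of all genes and 28.8% of genes at least as abundant. The 4 below were Cd3d, Cd3g, Fyn and Tespa1, 8.89% against 19.2% and 21.6%. WT library 1 lay below all GFPlow libraries for 34 members, 75.6% against 43.5% of all genes tested. WT library 2 did so for 22 members, 48.9% against 30.2%, and lay above them for 12, 26.7% against 32.8%. Without WT library 1, 10 members were higher and none was lower, 22.2% against 6.54% of all genes tested and 11.2% of genes at least as abundant, with 2.68% of all genes higher and 3.86% lower: the 5 above with Cd247, Cd4, Lat, Prkcq and Dgka. That fit held 1 WT library, WT library 2, so no spread between WT libraries entered it. On the log2 scale Cd247 was higher by 0.77 in it, Cd4 by 0.47, Lat by 0.63, Prkcq by 0.51 and Dgka by 0.77. Limma voom called 0 members and 72 of all genes. On the GFPlow and WT libraries alone, edgeR called 0 members and 36 of all genes. DESeq2 called 12 members and 3243 of all genes. In edgeR on all 8 libraries, 16 members, or 35.6%, had an unadjusted p under 0.05. The share was 25.0% of all genes tested and 34.6% of genes at least as abundant.

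The comparison of GFPhi with WT set TIM-3+ FLAG+ against TIM-3- FLAG- cells, both GFP+ and FoxP3+. No member passed in edgeR's quasi-likelihood test, 0 of 45, and 0% of the 18851 genes tested were called. At an unadjusted p under 0.05 there were 2 members, Cd3d and Cd3g, or 4.44%, against 13.7% of all genes tested (2588 genes). DESeq2 called 1 member, Cd3d, and 320 of all genes, while voom called 0 members and 0 of all genes. Without WT library 1 edgeR again called 0 members, with 5 at an unadjusted p under 0.05, 11.1% against 5.17% of all genes tested: Cd247, Txk, Lat, Pag1 and Pik3cd. With each library left out in turn, the median log2 fold change of the members ran from 0.06 to 0.49. Of the members, 37 lay above 0, as did 53.4% of all genes, with a median log2 fold change of 0.30, which was 0.06 without WT library 1, while the median over all genes tested was 0.08 and 0.01.

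The 5 members with the smallest p in this comparison show how much that library enters the values. Cd3d was at 1053, 1169 and 1124 CPM in GFPhi libraries 1 to 3, 1149, 1207 and 1195 CPM in GFPlow libraries 1 to 3, and 4583 and 1245 CPM in WT libraries 1 and 2. The 1 high value was WT library 1, and the log2 difference of GFPhi from WT was -1.39 ± 0.45 (adjusted p = 0.348) and -0.17 ± 0.07 without it. Cd3g was at 1346, 1534 and 1374 CPM in GFPhi libraries 1 to 3, 1443, 1442 and 1469.8 CPM in GFPlow libraries 1 to 3, and 3777 and 1552 CPM in WT libraries 1 and 2, again with 1 high library, and a log2 difference of -0.91 ± 0.34 (adjusted p = 0.348), or -0.14 ± 0.08 without it. Cd3e lay on the other side, at 190.1 CPM in WT library 1 and 418 CPM in WT library 2. In the receptor the delta and gamma chains each pair with an epsilon chain. Tespa1, at 483 CPM in WT library 1 and 334 CPM in WT library 2, and 302 ± 3.50 CPM (SD, n = 3) in GFPhi, differed by -0.44 ± 0.21 with WT library 1 and -0.15 ± 0.08 without it. Vav1, the exchange factor for Rac, was at 55.4 CPM in WT library 1 and 151 CPM in WT library 2, and 177 ± 12.9 CPM in GFPhi, with log2 differences of 0.77 ± 0.37 and 0.22 ± 0.10.

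Of these 5 members, Pik3cd moved least when WT library 1 was left out. Both WT libraries, at 140.3 and 164 CPM, were below the 197 ± 7.83 CPM (SD, n = 3) of GFPhi. The log2 difference was 0.38 ± 0.17 (adjusted p = 0.372), or 0.26 ± 0.08 without WT library 1, and neither passed. Pik3cd was thus ordered WT, GFPhi, GFPlow in every library, and the step from WT to GFPhi is not shown by the test. Themis differed from it: GFPhi, at 60.4 to 76.0 CPM, enclosed both WT libraries. The libraries of GFPhi and WT did not overlap for 12 members, or 26.7%, against 28.1% of all genes tested, with 8 above in GFPhi (17.8% against 15.6%) and 4 below (8.89% against 12.6%).

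WT library 2 alone lay inside the GFPhi range for 24 of the 45 members, or 53.3%, against 50.3% of all genes tested. It lay inside the GFPlow range for 11 members, 24.4% against 36.9%. WT library 1 lay below all GFPhi libraries for 31 members, 68.9% against 45.1%. Against WT library 2 it was lower by more than 2-fold for 12 members, or 26.7%, near the 24.2% of all genes tested with a count in both, among them Sh2d2a at a ratio of 0.294 and Lcp2 at 0.317. It was higher by more than 2-fold for 3 members, 6.67% against 25.0%: Cd3d, at a ratio of 3.68, Cd3g, at 2.43, and Sos1, with 29.4 CPM against 14.0 CPM. Counts of mitochondrial genes and of genes detected moved with these ratios in the same library, and their part was not tested.

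**Figure D5:**
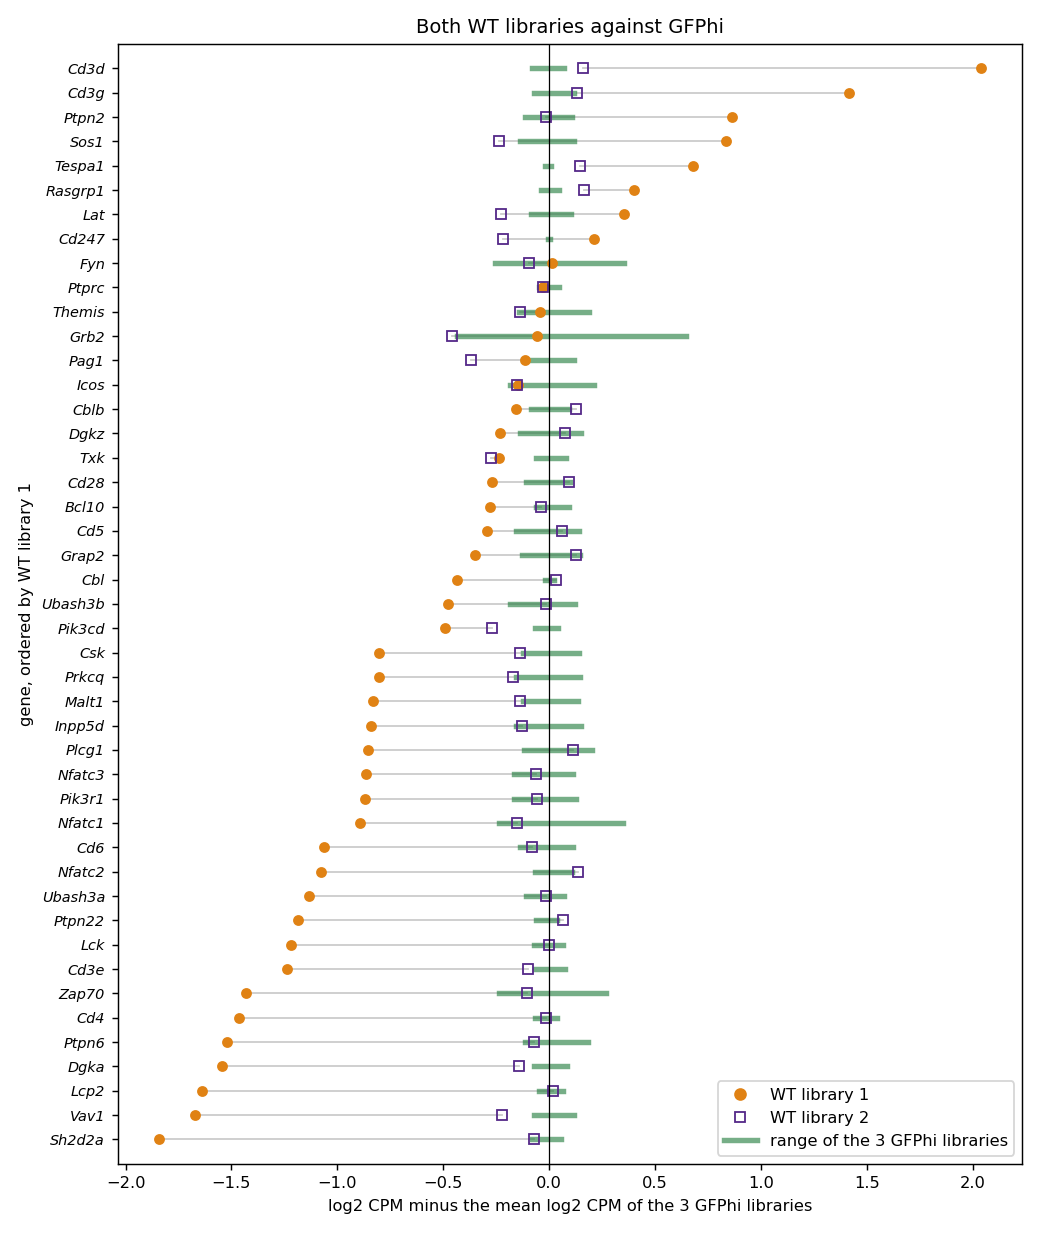
Log2 CPM of the 45 members in WT library 1 (circles) and WT library 2 (squares) minus the mean of the 3 GFPhi libraries, whose range is the green bar, with members ordered by WT library 1. WT library 2 lies inside the GFPhi range for 24 members, and WT library 1 lies below it for 31 and above it for 8.

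A wider list of 97 further genes of the pathway, chosen with earlier results of these data known, held 96 genes that were tested. In GFPhi against GFPlow, 4 of 96 passed, or 4.17% beside the 2.26% of all genes. Gab3, an adaptor of the GAB family, fell by a log2 difference of -1.23 ± 0.19 (adjusted p = 0.0147). Spry1, an inhibitor of Ras signalling, rose, at 22.5, 21.7 and 18.7 CPM in GFPhi libraries 1 to 3, 5.60, 5.32 and 3.12 CPM in GFPlow libraries 1 to 3, and 7.24 and 15.6 CPM in WT libraries 1 and 2, with a log2 difference of 2.16 ± 0.36 (adjusted p = 0.0232). Vav2, the widely expressed relative of Vav1, rose by 2.22 ± 0.38 (adjusted p = 0.0248), at 12.4 ± 4.83 CPM (SD, n = 3) in GFPhi and 2.67 ± 0.789 CPM (SD, n = 3) in GFPlow, whereas Vav1 overlapped.

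In GFPlow against WT, 4 of the 96 passed, 4.17% beside 3.30% of all genes. Gab3 (1.26 ± 0.22, adjusted p = 0.0205) and the transmembrane adaptor gene Sit1 (1.09 ± 0.21, 0.0312) rose in GFPlow, and Vav2 fell (-2.56 ± 0.40, 0.016). In GFPhi against WT, edgeR called 0 of the 96, with 8 at an unadjusted p under 0.05, 8.33% against 13.7% of all genes. On all 8 libraries the median log2 fold change of the wider list was -0.08 in GFPhi against GFPlow. It was 0.25 in GFPlow against WT and 0.25 in GFPhi against WT. Without WT library 1 these medians were -0.08, -0.0011 and 0.01, in that order. Leaving out any 1 of the 6 GFPhi and GFPlow libraries left at most 1 of the 4 calls of the first comparison.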

How the data were processed

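RNA was sequenced from 8 libraries of sorted spleen CD4 T cells, which were sorted into lysis buffer and prepared with the kits SMART-Seq HT and Nextera XT, per the labels' protocols. The authors deposited 1 table of raw counts for Ensembl gene identifiers. The submitters' processing notes name the build GRCm38 and the tools HISAT2 2.1.0, SAMtools 1.9, HTSeq 0.11.2, R 4.0 and edgeR. What each tool did, which annotation was used and whether strand was counted is not given in the sources used here, so overlapping and antisense genes may share reads. Symbols, coordinates and exon lengths come from GENCODE vM21 (GRCm38), which matched 54808 of the 54837 identifiers. Total counts were 44446215 to 55388756 per library. Reads without molecular identifiers are not independent molecules.

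From the counts, edgeR 4.0.16 (filterByExpr, TMM, glmQLFit with robust estimation, glmQLFTest, 5 residual degrees of freedom) was fitted once to all 8 libraries with 1 mean per group. Two-sided p-values were adjusted over the 18851 genes kept (Benjamini-Hochberg), and the threshold was 0.05. Abundances are given as CPM scaled by TMM, with the SD over libraries, and log2 fold changes carry the standard error (SE). CPM per kilobase uses the joined length of a gene's exons.

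The members, the wider list and the naming rule were chosen with earlier results of these data known. Values in every library are given for members past the threshold in any comparison, for the 5 members with the smallest p where fewer than 5 passed, and for the receptor chains and Cd4, and the others are given by group mean, range or count. Some members outside this rule are shown by library because they passed without WT library 1, or were chosen after their values were seen. Not every gene of the wider list that passed is reported here by name. Promoter windows come from RefSeq.

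Alternatives were median-of-ratios and upper-quartile scaling, a minimum of 5 CPM in 2 libraries or none, DESeq2 1.42.0, limma 3.58.1 voom with quality weights, a fit without robust estimation, a block on the replicate number, only the libraries compared, each library left out in turn, and DESeq2 and voom on the 7 libraries other than WT library 1. With 1 WT library left, it was assumed to vary like the other groups. The main fit, and none of the alternatives, was tested on simulated data, in which no library stood apart. R 4.3.3, Python 3.11.15, pandas 2.3.3, numpy 2.4.6 and matplotlib 3.10.9 were used.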

Additional observations from a re-analysis of the deposited data

How the results depend on the processing

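The log2 fold changes printed for members and genes of the wider list, Trac included, kept their direction under all 21 alternatives. That of Havcr2 was not followed over the alternatives. Counts of calls moved. For GFPhi against GFPlow the count of members past the threshold, 3 on all libraries, was 8 with DESeq2, 14 with voom and 16 with only the libraries compared. Leaving out 1 library gave 1 to 16, with 16 without either WT library. For GFPlow against WT (5) the counts were 12, 0, 0, 17 and 12 in that order, and 2 to 33 with 1 library left out. For GFPhi against WT (0) DESeq2 gave 1, and leaving out 1 library 0 to 33, with 33 without WT library 2. For the wider list the counts in GFPhi against GFPlow (4) were 10, 24, 27, 35 and 27, and 0 to 27 with 1 library left out. In GFPlow against WT (4) they were 29, 0, 0, 25 and 18, 7 with no filter, 7 with the filter of 5 CPM, and 0 to 67 with 1 library left out. In GFPhi against WT (0) they ran from 0 to 62 with 1 library left out. Over all genes tested, GFPhi against GFPlow (426) gave 1375 with DESeq2, 2271 with voom, 2021 with only the libraries compared and 105 to 2025 with 1 library left out. GFPlow against WT (623) gave 3243, 72, 36 and 211 to 9037, and GFPhi against WT (0) gave 320 with DESeq2 and 8307 without WT library 2. The cause of these moves was not tested. The labels do not say whether the numbers in the titles pair the libraries, and the main test used no pairing. Deviations of GFPhi and GFPlow libraries of the same number correlated across genes at 0.0671, 0.0662 and 0.149. Each such library correlated best with its own number in the other group. In GFPhi and GFPlow, the libraries numbered 3 held Xist and those numbered 1 and 2 held Ddx3y. The replicate block on all 8 libraries also joins the WT libraries, from mice of another genotype, to these numbers. With the replicate block the counts of members were 2 for GFPhi against GFPlow and 1 for GFPlow against WT, and 1 and 1 for the wider list. With the replicate block and only the libraries compared they were 16 and 0, and 25 and 0 for the wider list. With the replicate block on the 7 libraries other than WT library 1, a fit chosen after seeing the data, they were 16 and 9, and 24 and 9 for the wider list. Over all genes the block gave 182 and 158, and with only the libraries compared 1648 and 356, and 22 for GFPhi against WT. Every member had at least 499 counts in every library, and whether depth limited the results was not tested. With 2 WT libraries, of which 1 stood apart, the comparisons with WT are the least precise.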

Other observations

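The constant genes of the receptor itself were measured beside its CD3 chains. Trac, the constant gene of the alpha chain, was at 1232, 1317 and 1416 CPM in GFPhi libraries 1 to 3, 1800.2, 1861 and 1795 CPM in GFPlow libraries 1 to 3, and 721 and 1381 CPM in WT libraries 1 and 2. Every GFPlow library was above every other library, and the log2 difference of GFPhi from GFPlow was -0.46 ± 0.25 (adjusted p = 0.606), which did not pass. Without WT library 1 it was -0.46 ± 0.06 (edgeR, adjusted p = 0.00214), and under the 21 alternatives the adjusted p ranged from 6.47e-11 to 1. Trbc1, a constant gene of the beta chain, was at 1000.1, 1127 and 1082 CPM in GFPhi libraries 1 to 3, 1121, 1114 and 1121 CPM in GFPlow libraries 1 to 3, and 2307 and 1174 CPM in WT libraries 1 and 2. Trbc2, its near copy, was at 1512, 1640.2 and 1613 CPM in GFPhi libraries 1 to 3, 1582, 1623 and 1606 CPM in GFPlow libraries 1 to 3, and 3482 and 1602 CPM in WT libraries 1 and 2. For both beta genes GFPhi, GFPlow and WT library 2 lay close together and WT library 1 stood alone above them, whereas for Trac it was the lowest library. Reads of Trbc1 and Trbc2 are uncertain where the 2 genes are nearly identical.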
